A study of Mus musculus with 6 samples.

Results

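The 7 genes of the platelet-derived growth factor (PDGF) family described here were the ligand genes Pdgfa, Pdgfb, Pdgfc and Pdgfd, the receptor genes Pdgfra and Pdgfrb, and the receptor-like gene Pdgfrl. They were taken by symbol from the 33697 genes counted, and each matched 1 row. PDGF ligands are secreted as disulfide-linked dimers and signal through a pair of receptor tyrosine kinases. PDGF-A and PDGF-C act mainly through PDGFRα, PDGF-D mainly through PDGFRβ, and PDGF-B through both. PDGF-C and PDGF-D are released in a latent form that proteases must cut. In the gut, epithelial PDGF-A is known to organize PDGFRα+ mesenchyme under the villi, while PDGF-B from blood vessels recruits PDGFRβ+ pericytes.

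The libraries hold live tdTomato+ lamina propria cells sorted from Flare-TSLP mice, a C57BL/6 line from 1 embryonic stem cell clone. Its targeted Tslp allele carries loxP sites and an IRES-tdTomato reporter, and all 6 libraries share this allele. There were 2 libraries each from the proximal small intestine (proximal jejunum) and the distal small intestine (distal ileum), and 1 each from the cecum and the large intestine, with no treatment in the labels. Each library pooled cells carrying 3 hashtags, antibodies with a DNA barcode. One set of hashtags was found in the first replicates of proximal and distal small intestine and in both large bowel libraries, and another set in the second replicates. The study's general methods describe young adult mice of both sexes and several biological samples per small intestinal region, but they tie no hashtag to a mouse, so a library counted as 1 sample. The spread between libraries may be partly technical. No library of tdTomato-negative cells was part of the series. The study dropped clusters with almost no tdTomato-expressing cells as contaminants, a step not repeated here. It reported fibroblasts and lymphatic endothelial cells as the main stromal types. Whether the blood endothelial-like, glia-like and immune classes below express the reporter is not given here.

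After doublet removal 93558 cells remained, between 11174 and 19073 per library, and a library held between 109675337 and 206827504 UMIs (unique molecular identifiers, each marking 1 captured transcript) on genes. Any 2 libraries shared between 38 and 118 cell barcodes, at most 0.609% of the smaller library. Cells were clustered without the 7 PDGF genes and 46 further PDGF pathway genes, and clusters were named from marker lists that contained no PDGF family gene. Of these cells, 71491 fell in fibroblast-like clusters, 15393 were LEC-like (lymphatic endothelial), 1431 blood endothelial-like, 1327 pericyte-like, 1144 myofibroblast-like and 173 glia-like. The fibroblast-like clusters comprised 13857 trophocyte-like cells (CD34+ fibroblasts at the crypt base that secrete BMP antagonists), 8901 SEMF-like cells (subepithelial myofibroblasts of the villus, by cluster found in the small intestine only), 4483 telocyte-like cells (Foxl1+ subepithelial cells) and 8271 universal fibroblast-like cells (Pi16+ and Dpp4+). They further held 3505 Ptn/Scg2 stromal-like cells, 4403 chemokine-high-like cells and a pair of unnamed clusters, led by Vwc2 and Dkk2 (19416 cells, nearly all small intestinal) or by Ccl8 and Frmpd4 (8655 cells, nearly all from the large bowel). When cells were instead assigned one by one from marker sums, 2353 cells (27.2%) of the Ccl8/Frmpd4 cluster counted as SEMF-like. All 6 pericyte markers were raised in the pericyte-like cluster, and it also had between 9526 and 14349 CPM summed over 7 smooth muscle markers, none of them at 0. Levels are CPM, the UMIs of a gene divided by all UMIs of a class in a library and scaled to counts per 1000000, and a class with fewer than 20 cells in a library was left out. Each class was compared with others only over libraries. Because classes were drawn from the same cells that were then tested, the p-values between classes do not account for the clustering.

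Pdgfa, which encodes the chain that activates PDGFRα alone, lies at chr5:138961758-138983435 (minus strand, GRCm39). Its UMIs came from small classes as well as large ones, with 18.3% of them in pericyte-like cells, which were 1.42% of all cells. Glia-like cells had 595 and 592 CPM in proximal replicates 1 and 2 and 395 and 629 CPM in distal replicates 1 and 2. Pericyte-like cells had 195, 267, 265 and 299 CPM in the same order, 197 CPM in the cecum and 204 CPM in the large intestine. The pooled fibroblast-like cells had between 6.72 and 13.2 CPM, so every library of these 2 classes lay far above every fibroblast-like value. Myofibroblast-like cells held an intermediate level of 35.7 to 44.7 CPM in all 6 libraries. RNA of free droplets (barcodes with at most 100 UMIs) had between 8.38 and 19.7 CPM of Pdgfa, about the level of fibroblast-like cells, and how much of the latter was free RNA was not tested.

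Pdgfb (chr15:79880009-79899181, minus strand), the ligand gene best known from endothelium, was concentrated in blood endothelial-like cells. These cells made up 1.53% of all cells and held 64.6% of the Pdgfb UMIs. Their level was 238, 262, 194 and 265 CPM in the small intestinal libraries (proximal 1, proximal 2, distal 1, distal 2) and 178 CPM in the large intestine. Glia-like cells had 233, 147, 112 and 137 CPM in the small intestine, which overlapped the blood endothelial range. Myeloid-like cells had between 20.8 and 48.5 CPM, and pericyte-like cells between 8.73 and 19.0 CPM. Fibroblast-like cells had at most 0.385 CPM in any library, 133 UMIs in all, while free RNA had up to 13.8 CPM.

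Pdgfc (chr3:80943668-81121473, plus strand), whose protein carries a CUB domain that must be removed before it can bind a receptor, was highest in myofibroblast-like cells. Among fibroblasts, Ptn/Scg2 stromal-like cells led in both proximal libraries (78.9 and 60.2 CPM) and trophocyte-like cells in both distal ones. Myofibroblast-like cells had 376, 267, 295 and 267 CPM in the small intestinal libraries, 329 CPM in the cecum and 434 CPM in the large intestine. Trophocyte-like cells, more numerous, held 52.9% of all Pdgfc UMIs, with 59.4 and 50.3 CPM in the proximal and 93.9 and 105 CPM in the distal libraries. SEMF-like cells were near 0, with 1.23 to 2.31 CPM. Small intestinal telocyte-like cells gave 4 UMIs in all, each of them in distal replicate 2.

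In several stromal classes the Pdgfc level of the large bowel lay below that of every small intestinal library. Ptn/Scg2 stromal-like cells had 53.7 to 78.9 CPM in the small intestine, 20.5 CPM in the cecum and 9.31 CPM in the large intestine. Universal fibroblast-like cells had 31.1 to 51.5 CPM, against 5.58 and 7.79 CPM, and pericyte-like cells 29.1 to 69.1 CPM, against 1.04 and 6.35 CPM. Trophocyte-like cells of the large intestine (116 cells) had 5.41 CPM. These gaps are given as levels and were not tested, and the share of all genes with such gaps was not counted. Marker sums moved with region in the same cells. In Ptn/Scg2 stromal-like cells the class's own 5 markers were lower in the large bowel (2163 and 3435 against 4615 to 6828 CPM summed), as were 6 pericyte markers (416 and 1138 against 2535 to 4145 CPM). There, 5 fibroblast lineage markers (20617 and 23489 against 8730 to 12498 CPM) and 6 universal fibroblast markers (229 and 287 against 21.0 to 39.9 CPM) were higher. In universal fibroblast-like cells the class's own 6 markers (1731 and 1772 against 706 to 1180 CPM) and the lineage markers (33604 and 43204 against 21686 to 24445 CPM) were higher, while Ptn/Scg2 stromal (136 and 413 against 548 to 792 CPM), pericyte (33.1 and 59.9 against 143 to 185 CPM) and telocyte markers (153 and 281 against 305 to 558 CPM) were lower. Pericyte-like cells had more of 5 lamina propria fibroblast markers (1500 and 1654 against 399 to 1441 CPM). Likewise higher were universal fibroblast (367 and 510 against 191 to 274 CPM) and chemokine-high markers (1662 and 1785 against 226 to 1571 CPM). Blood endothelial markers rose too (482 and 483 against 284 to 437 CPM). Lower were 8 telocyte (269 and 305 against 464 to 761 CPM) and 10 SEMF markers (921 and 966 against 1010 to 1228 CPM). Large intestinal trophocyte-like cells had more of 7 smooth muscle markers (335 against 31.2 to 58.9 CPM). They also had more universal fibroblast markers (1560 against 567 to 923 CPM). Their Ptn/Scg2 stromal (78.5 against 326 to 463 CPM) and pericyte markers (34.3 against 94.3 to 312 CPM) were lower. The part of these markers and finer clusters in the PDGF levels of the same cells was not tested. Free RNA moved the same way, with 17.7 to 34.4 CPM in the small intestine, 6.65 CPM in the cecum and 9.47 CPM in the large intestine. After subtraction of 10% of each sum along the free RNA profile the ranges stayed apart, with 57.2 to 84.3 CPM against 9.22 to 22.1 CPM in Ptn/Scg2 stromal-like cells, and 32.2 to 54.2 CPM against 5.47 to 7.58 CPM in universal fibroblast-like cells. Myofibroblast-like cells did not share this pattern, their 2 large bowel libraries lying within or above the small intestinal range.

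Pdgfd (chr9:6168240-6379265, plus strand), the other CUB domain ligand and a PDGFRβ agonist, was spread over most stromal and endothelial classes. Blood endothelial-like cells had 630.2, 638, 480.1 and 654 CPM in the small intestinal libraries and 344 CPM in the large intestine. Trophocyte-like cells had 276, 284, 246 and 329 CPM, and 403 CPM in the large intestine. LEC-like cells had 167, 163, 131 and 159.6 CPM, with 67.0 CPM in the cecum and 95.03 CPM in the large intestine. Blood endothelial-like cells therefore stood above both other classes in each small intestinal library, and trophocyte-like above LEC-like cells. Ptn/Scg2 stromal-like cells were low among fibroblasts, at 34.6 to 74.9 CPM. Myeloid-like cells had 15.4 to 63.8 CPM, and free RNA 94.9 to 134 CPM. After subtraction of 10% of each sum along the free RNA profile, LEC-like cells of the large bowel still had 63.4 and 90.4 CPM, Ptn/Scg2 stromal-like cells 23.4 to 68.6 CPM and myeloid-like cells 2.44 to 56.2 CPM.

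**Figure D1:**
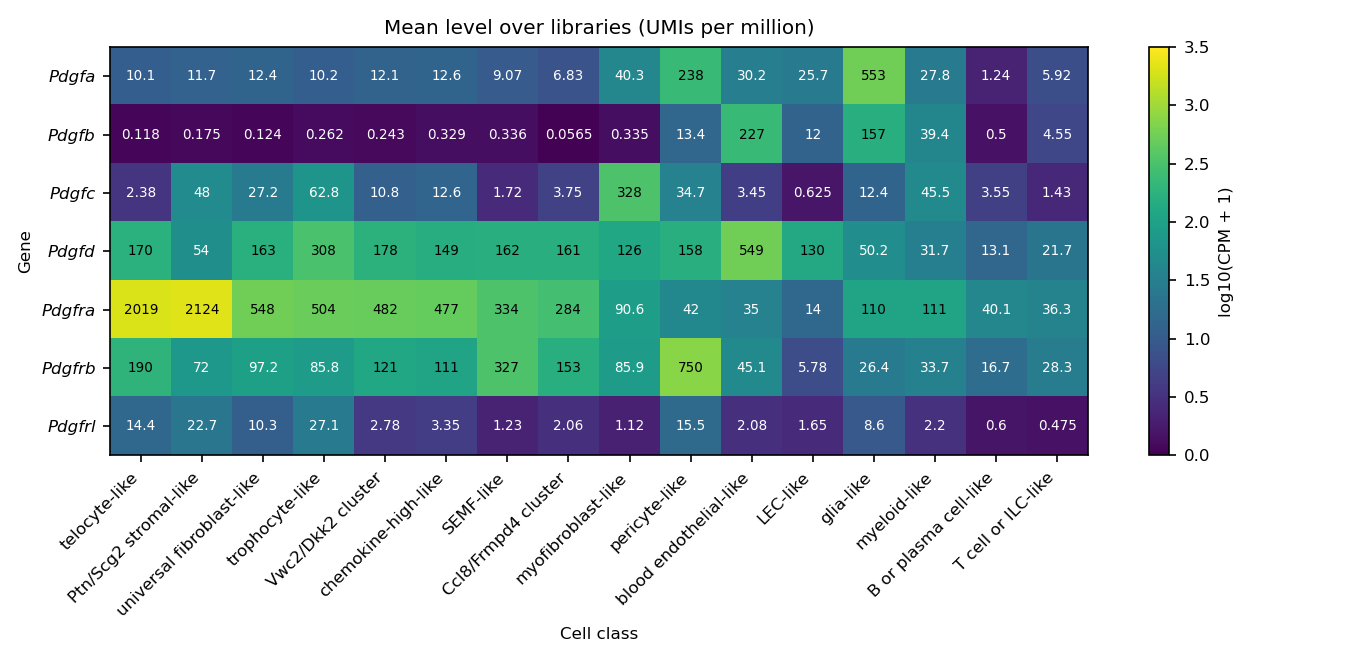
Level of the 7 PDGF genes (rows) by cell class (columns), with the number giving the mean CPM over all libraries that held at least 20 cells of the class and the colour log10(CPM + 1). The ligand genes Pdgfa and Pdgfb stood out in glia-like, pericyte-like or blood endothelial-like cells, Pdgfc in myofibroblast-like cells, and Pdgfra in telocyte-like and Ptn/Scg2 stromal-like cells.

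Pdgfra (chr5:75311994-75358876, plus strand), the gene of the receptor for PDGF-A and PDGF-C and a general marker of gut fibroblasts, had its top levels in telocyte-like and Ptn/Scg2 stromal-like cells. Telocyte-like cells had 2548 and 2438 CPM in the proximal and 2021 and 2335 CPM in the distal libraries, 1462 CPM in the cecum and 1313 CPM in the large intestine. Ptn/Scg2 stromal-like cells had 2764, 2726, 2316 and 2530.1 CPM in the small intestine, 1144 CPM in the cecum and 1264 CPM in the large intestine. The ranges of these 2 classes overlapped in the small intestine, and both were lower in the cecum and the large intestine than in any small intestinal library. The marker sums and finer clusters given with Pdgfc differed between the regions in the same Ptn/Scg2 stromal-like cells. Their part in the Pdgfra levels was not tested. Small intestinal SEMF-like cells had 309 to 370.5 CPM, trophocyte-like cells 471 to 563 CPM, and cells of the Vwc2/Dkk2 cluster 448 to 519 CPM, the last 2 ranges overlapping. Free RNA held 309 to 578 CPM. LEC-like cells, which should lack the receptor, had 7.47 to 21.0 CPM.

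Pdgfrb, on chromosome 18, encodes the receptor for PDGF-B and PDGF-D that marks mural cells. Pericyte-like cells had 692, 716, 650.0 and 903 CPM in the small intestinal libraries, 714 CPM in the cecum and 825 CPM in the large intestine. SEMF-like cells followed with 334 and 199.8 CPM in the proximal and 461 and 314 CPM in the distal libraries, and telocyte-like cells of the small intestine with 178 to 238 CPM. The pericyte-like values lay above all others, whereas SEMF-like and telocyte-like ranges overlapped. Trophocyte-like cells had 86.8 to 93.9 CPM in the small intestine, below every SEMF-like and telocyte-like library. LEC-like cells had 2.82 to 7.91 CPM, and free RNA 110 to 166 CPM.

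Both SEMF-like clusters carried Pdgfra at a like level, but Pdgfrb differed between them. The cluster led by Itga8, with Il34 and Wnt4 raised, had 429, 312, 502 and 434 CPM of Pdgfrb in proximal 1, proximal 2, distal 1 and distal 2. The cluster led by Frmd5 and Lrat had 169, 151, 177 and 169.6 CPM in the same libraries, so the ranges did not overlap. Pdgfra was 291 to 373 CPM in the former and 339 to 368 CPM in the latter. Of 10 SEMF markers, 9 were raised in the former cluster and 4 in the latter. The clusters were set on the other genes of the same cells, and this difference is given as a description without a test. Proximal replicate 2, the lowest SEMF-like library for Pdgfrb, had 2093 of its 3002 SEMF-like cells in the Frmd5/Lrat cluster, and distal replicate 1, the highest, 129 of 1044.

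Pdgfrl (chr8:41379147-41444594, plus strand) encodes a secreted PDGF receptor-like protein with immunoglobulin domains and no kinase. Trophocyte-like cells held 52.7% of its UMIs, with 30.6 and 18.9 CPM in the proximal libraries, 39.7 and 17.2 CPM in the distal libraries and 28.9 CPM in the large intestine. Replicate 1 exceeded replicate 2 in both regions, and free RNA did so too, with 8.29 and 13.5 CPM in the first replicates and 2.90 and 3.87 CPM in the others. Ptn/Scg2 stromal-like cells had 3.22, 4.42, 8.79 and 11.02 CPM in the small intestine, and 32.4 CPM in the cecum and 76.5 CPM in the large intestine. Marker sums and finer clusters of these cells again differed between the regions. Telocyte-like cells ran the other way, with 14.4, 16.9, 31.1 and 16.8 CPM in the small intestine and 2.06 CPM (cecum) and 5.34 CPM (large intestine). SEMF-like cells had at most 1.88 CPM.

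**Figure D2:**
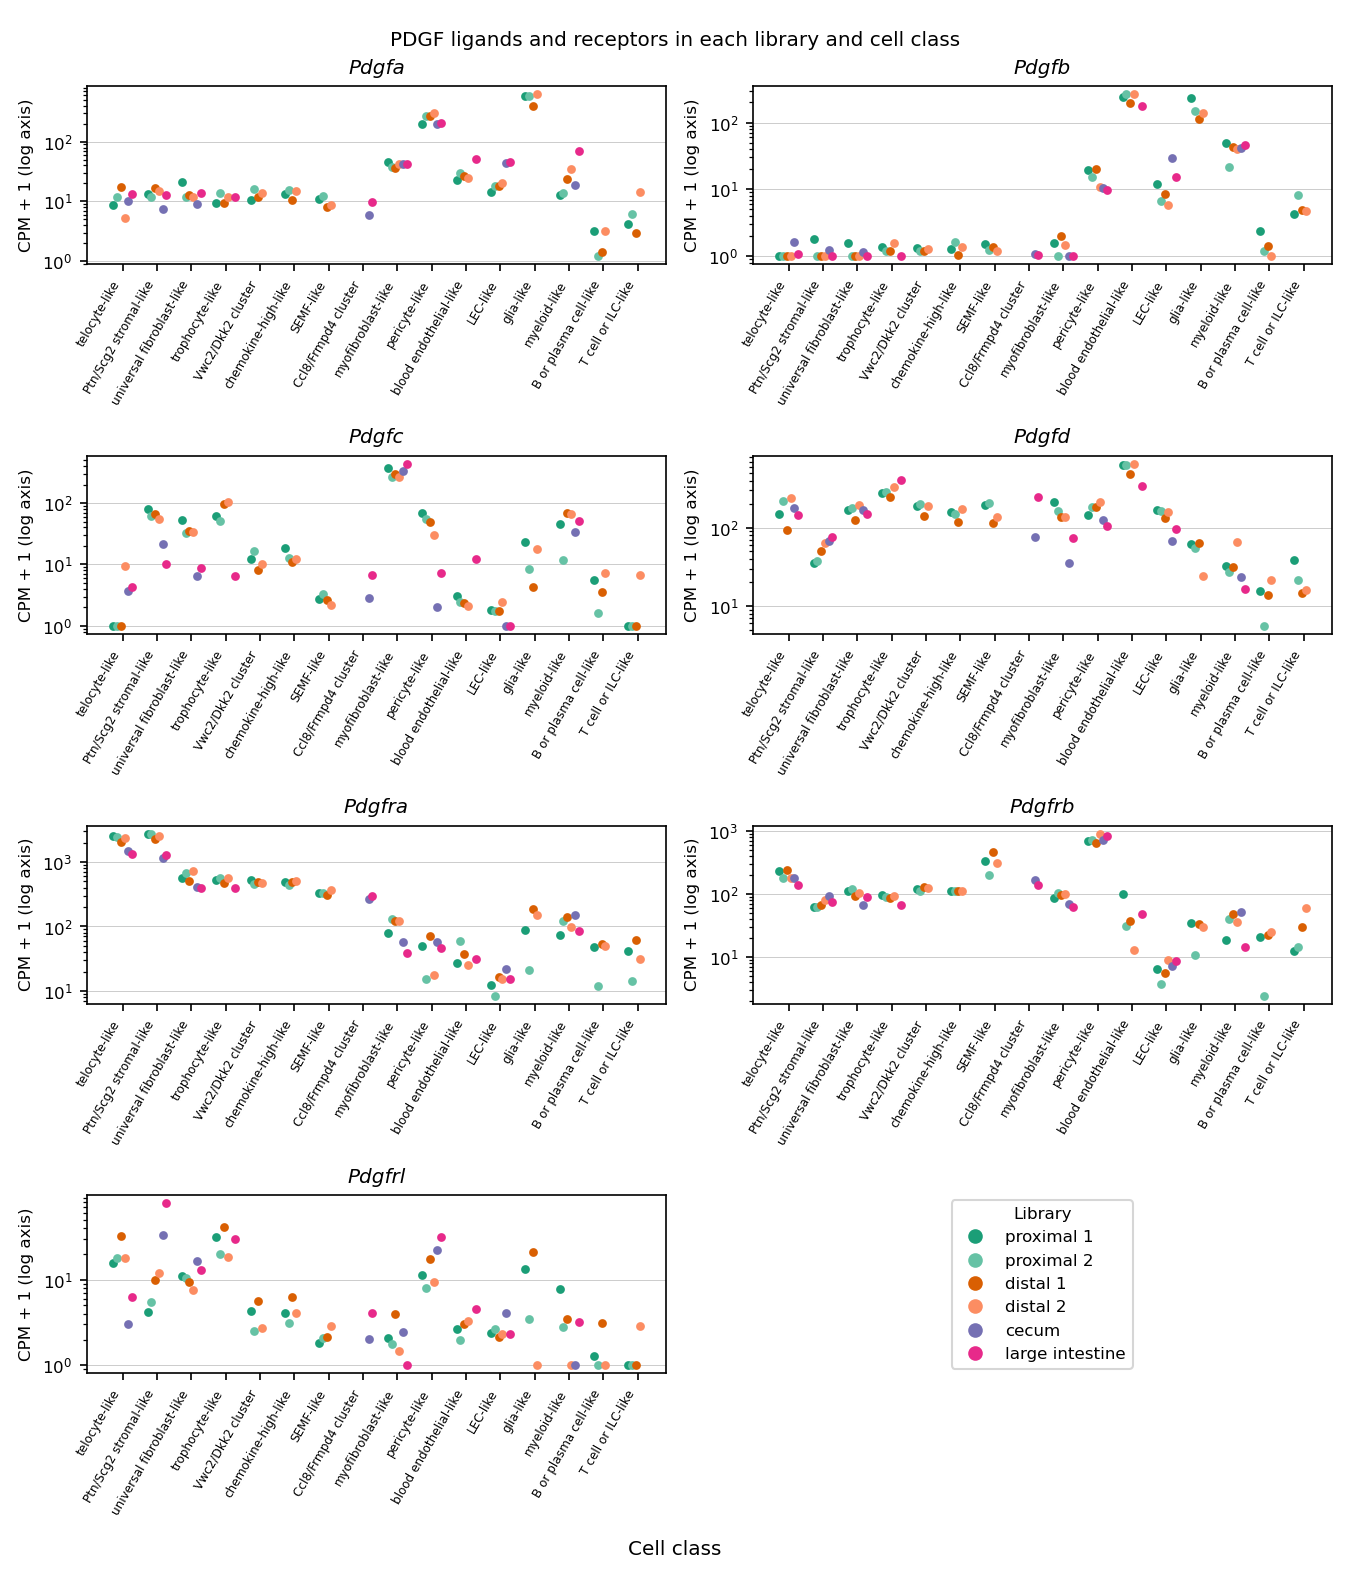
CPM + 1 of each PDGF gene by cell class on a log axis, with 1 point per library, coloured by library as in the key. Pdgfrb of pericyte-like cells sat between 650.0 and 903 CPM in all 6 libraries, while Pdgfra of telocyte-like cells fell into a small intestinal (2021 to 2548 CPM) and a large bowel (1313 and 1462 CPM) range.

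The largest named fibroblast classes of the small intestine, subepithelial SEMF-like and crypt-associated trophocyte-like cells, were compared in the 4 small intestinal libraries (edgeR quasi-likelihood test, library as block, Benjamini-Hochberg adjustment over all genes, threshold 0.05). Pdgfrb was higher in SEMF-like cells (327 ± 107 against 90.6 ± 3.13 CPM, SD, n = 4, log2 fold change 1.46 ± 0.19 SE, adjusted p = 8.70e-04), and Pdgfra was lower (334 ± 26.1 against 531 ± 42.5 CPM, log2 fold change -1.01 ± 0.06, adjusted p = 4.67e-05). Pdgfc, Pdgfrl and Pdgfd were all lower in SEMF-like cells in 4 of 4 libraries. Pdgfc had a log2 fold change of -5.67 ± 0.30 (adjusted p = 2.87e-05), Pdgfrl of -4.52 ± 0.30 (adjusted p = 6.52e-05) and Pdgfd of -1.17 ± 0.15 (adjusted p = 8.68e-04). Pdgfa, with overlapping levels of 7.14 to 11.5 against 8.22 to 12.97 CPM, passed narrowly (log2 fold change -0.49 ± 0.13, adjusted p = 0.0176) and no longer did so without the library block or without proximal replicate 2, distal replicate 1 or distal replicate 2 (adjusted p between 0.0515 and 0.0645). Pdgfb did not pass (25 and 37 UMIs, adjusted p = 0.597), except with doublets kept (log2 fold change -1.35, adjusted p = 0.0268). In all, 6 of 7 PDGF genes passed in a comparison in which 62.6% of 16302 genes did (28.7% higher and 33.9% lower).

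Of 46 further genes of PDGF processing, signalling and response, 45 were tested between SEMF-like and trophocyte-like cells, of which 12 were higher, 15 lower and 18 did not pass, a share of 60% with a median log2 fold change of -0.08 (all genes tested, -0.03). Among processing and binding genes, 2 of 9 were higher and 4 lower, and Cspg4, which encodes the NG2 proteoglycan that binds PDGF-A, rose most (75.1 ± 3.74 against 3.18 ± 0.794 CPM, log2 fold change 4.27 ± 0.12, adjusted p = 3.99e-06). The other was Nrp1, a co-receptor gene (log2 fold change 1.23 ± 0.08). Of 10 inhibitors 5 were higher and 1 lower, led by Spry1, a feedback inhibitor of receptor tyrosine kinase signalling (72.7 ± 8.52 against 7.64 ± 0.548 CPM, log2 fold change 2.91 ± 0.08). The 20 signalling genes split into 5 higher and 5 lower. Of 6 response genes 5 were lower, with Ier2 (log2 fold change -4.83 ± 0.13), Fos (-4.70 ± 0.23) and Egr1 (-4.16 ± 0.16) at the bottom. These are immediate-early genes that growth factors and many other stimuli induce, tissue dissociation included, and a part of handling in the difference was not tested.

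Telocytes are known as PDGFRA-high cells, and telocyte-like cells of the small intestine were set against SEMF-like cells of the same 4 libraries. Pdgfra was higher in telocyte-like cells in each of them (2336 ± 227 against 334 ± 26.1 CPM, log2 fold change 2.82 ± 0.12, edgeR adjusted p = 1.43e-07), as was Pdgfrl (19.8 ± 7.61 against 1.23 ± 0.450 CPM, log2 fold change 3.98 ± 0.37, adjusted p = 3.26e-05). Pdgfrb was lower (207 ± 32.4 against 327 ± 107 CPM, log2 fold change -0.59 ± 0.14, adjusted p = 0.0156), with ranges that overlapped. The direction held against the Itga8 cluster of SEMF-like cells (312 to 502 CPM) and not against the Frmd5/Lrat cluster (151 to 177 CPM), which lay below telocyte-like cells in 4 of 4 libraries. The call was lost without proximal replicate 1 (adjusted p = 0.0561), without distal replicate 2 (0.0772) and without the block (0.0946). Pdgfa (log2 fold change 0.06 ± 0.35, adjusted p = 0.953) and Pdgfd (0.07 ± 0.18, adjusted p = 0.850) did not pass, although Pdgfd did with cells assigned one by one (0.43, adjusted p = 0.0174), and Pdgfb and Pdgfc were too low to be tested. Thus 3 of 5 tested members passed, where 20% of 12641 genes did (10.7% higher and 9.32% lower). Among the 44 pathway genes tested, 11 were higher and 7 lower in telocyte-like cells (median log2 fold change 0.08, all genes -0.02), including 4 of 5 response genes, all higher.

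Mural cells were compared with all fibroblast-like cells in the 6 libraries, where 43.4% of 16776 genes passed (17.3% higher and 26% lower) and 4 of the 7 members did. Both ligand genes of the classical pair, Pdgfa and Pdgfb, were higher in pericyte-like cells. Pdgfa had a log2 fold change of 4.49 ± 0.13 (238 ± 44.6 against 10.2 ± 2.13 CPM, SD, n = 6, edgeR adjusted p = 1.05e-08) and Pdgfb of 5.99 ± 0.36 (13.4 ± 4.70 against 0.212 ± 0.116 CPM, adjusted p = 1.22e-06), each in 6 of 6 libraries. The Pdgfb level of pericyte-like cells rested on 113 UMIs in all. It lay above the free RNA of the same library in 6 of 6 libraries, with the smallest ratio in proximal replicate 1 (18.8 against 13.8 CPM) and the largest in the cecum (9.40 against 0.493 CPM, the latter from 2 UMIs), and with free RNA subtracted it was 9.24 to 21.0 CPM. Pericyte-like cells also had 284 to 483 CPM summed over 6 blood endothelial markers, against 6875 to 7614 CPM in blood endothelial-like cells. The part of blood endothelial RNA in the Pdgfb level was not tested. Of the receptors, Pdgfrb was higher (750.1 ± 94.6 against 135 ± 18.9 CPM, log2 fold change 2.42 ± 0.11, adjusted p = 2.42e-07) and Pdgfra lower (42.0 ± 22.2 against 554 ± 103 CPM, log2 fold change -3.99 ± 0.28, adjusted p = 3.49e-06). The Pdgfra call depended on how cells were classed: with cells assigned one by one from marker sums in place of clusters (a per-cell marker gate) it was -0.23 (adjusted p = 0.697). That gate classed 276 cells of the Pdgfra-rich Ptn/Scg2 stromal-like cluster as pericyte-like, beside 876 cells of the pericyte-like cluster. It moved 395 cells of the pericyte-like cluster to the myofibroblast-like class. The part of these moves in the Pdgfra change was not tested. Pdgfc, Pdgfd and Pdgfrl did not pass (adjusted p = 0.107, 0.133 and 0.0959), but each did so under 1 alternative, Pdgfc without the cecum (log2 fold change 0.71, adjusted p = 0.0160), Pdgfd under the marker gate (-0.67, 0.0105) and Pdgfrl without proximal replicate 1 (0.71, 0.0496). The median of all genes was -0.14 on this scale. Pathway genes gave 18 higher, 10 lower and 17 that did not pass, with a median of 0.15.

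**Figure D3:**
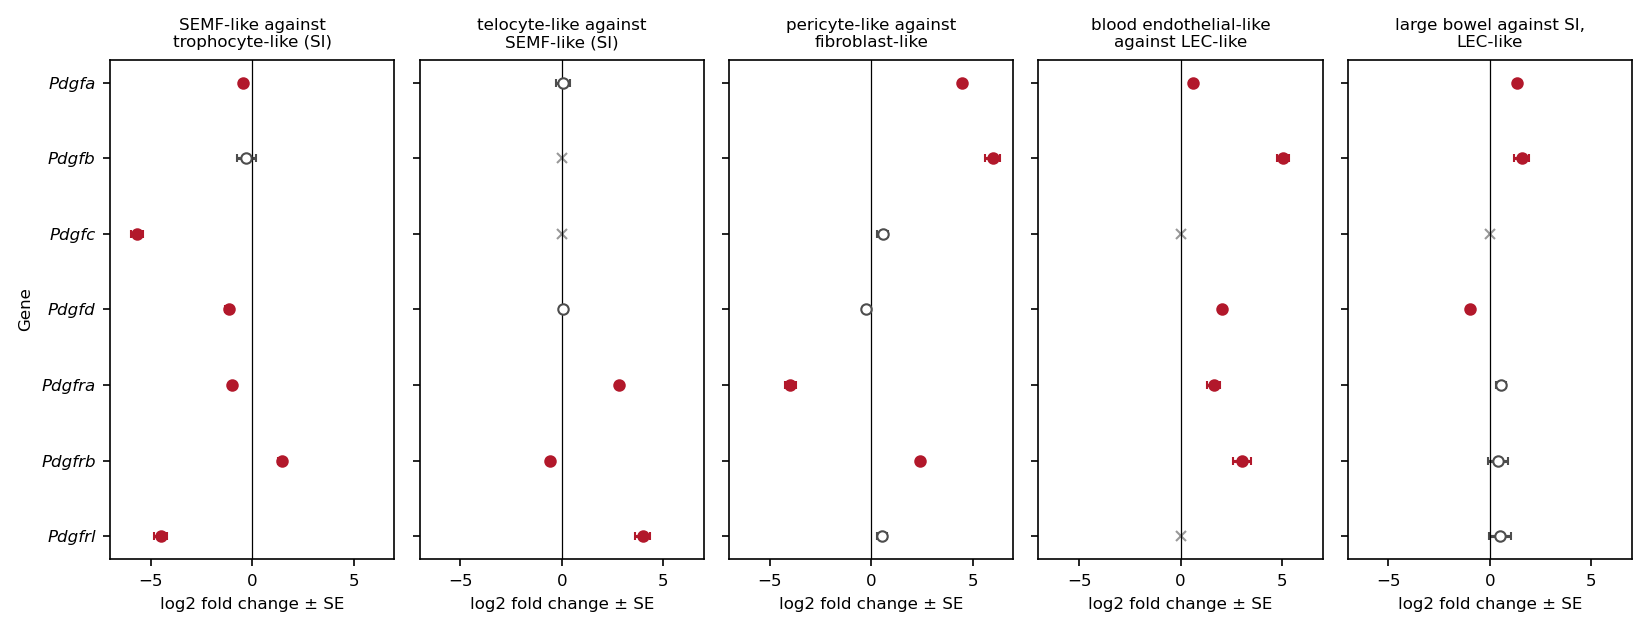
Fitted log2 fold change of each PDGF gene in 5 of the comparisons (the first named class or region over the other), with bars of 1 standard error, filled where the adjusted p was under 0.05, open where it was not, and a grey cross where the gene was too low to be tested. In pericyte-like against fibroblast-like cells Pdgfrb (2.42) and Pdgfra (-3.99) lay on opposite sides of 0.

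Blood endothelial-like cells were compared with LEC-like cells in the 5 libraries holding both, leaving out the cecum (18 blood endothelial-like cells). All 5 members tested were higher in blood endothelial-like cells in each library, where 58.2% of 11821 genes passed and 29.8% were higher. Pdgfb differed most (227 ± 39.7 against 8.65 ± 3.92 CPM, SD, n = 5, log2 fold change 5.06 ± 0.29, edgeR adjusted p = 1.49e-06), and Pdgfd was also far apart (549 ± 135 against 143 ± 30.4 CPM, log2 fold change 2.04 ± 0.06, adjusted p = 7.25e-08). Pdgfa showed a smaller difference (log2 fold change 0.62 ± 0.11, adjusted p = 0.00158) that did not pass without the block (adjusted p = 0.142). The receptor genes Pdgfra (log2 fold change 1.63 ± 0.31, adjusted p = 0.00198) and Pdgfrb (3.03 ± 0.46, adjusted p = 5.67e-04) passed at low levels. Pdgfra had 24.5 to 58.3 CPM and Pdgfrb 11.99 to 99.7 CPM in blood endothelial-like cells, both under their free RNA. With 10% of free RNA subtracted, LEC-like cells fell to 0 CPM of both receptors, and blood endothelial-like cells to 0 CPM of Pdgfra in 4 of 5 libraries (30.5 CPM in the other) and to between 0 and 95.2 CPM of Pdgfrb. Neither receptor could then be tested. The subtraction takes any level under 10% of the free RNA level to 0, so a 0 here cannot tell free RNA from low expression. Pathway genes were mostly higher in blood endothelial-like cells, 31 of 45 against 4 lower (median log2 fold change 0.48, all genes -0.01), and 8 of 9 processing and binding genes were higher.

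Between the proximal and the distal small intestine (2 against 2 libraries, no block) no PDGF gene passed in SEMF-like, trophocyte-like or LEC-like cells. Calls differed with the replicate number as a block, where Pdgfd passed in SEMF-like (log2 fold change 0.66, adjusted p = 0.0281), Pdgfc in trophocyte-like (-0.87, 7.31e-05), and Pdgfra (-0.72, 0.00542) and Pdgfrb (-0.84, 0.0367) in LEC-like cells. The last 2 rest on 7.47 to 15.6 CPM of Pdgfra and a few CPM of Pdgfrb, far under their free RNA. Both were at 0 CPM in small intestinal LEC-like cells once 10% of free RNA was subtracted. That subtraction takes any level under 10% of the free RNA level to 0, so it cannot tell free RNA from low expression here. In edgeR 0 of 15652 genes passed in SEMF-like cells (0%), 27 of 16555 in trophocyte-like cells (0.163%, with 0.0846% higher and 0.0785% lower proximally) and 0 of 15432 in LEC-like cells (0%), and 403, 946 and 686 did so at an unadjusted p under 0.05. DESeq2 gave 37, 164 and 38 genes, and limma-voom 0, 30 and 0. In simulated SEMF-like data of this size, 28.5% of 200 genes changed 2-fold, none of them a low-count gene, were recovered. The share of all genes without overlap between 2 and 2 libraries was not counted. The nearest member was Pdgfc in trophocyte-like cells, at 54.9 ± 6.47 CPM proximally and 99.4 ± 7.76 CPM distally (SD, n = 2 each), with no overlap. Its log2 fold change (proximal over distal) was -0.86 ± 0.15 with an adjusted p of 0.149. It passed in 5 of 12 alternatives, among them DESeq2 (adjusted p = 0.00189), and the range of adjusted p over the alternatives was 7.31e-05 to 0.907. Pdgfd in SEMF-like cells had 195 and 204 CPM proximally and 114 and 136 CPM distally, without overlap (log2 fold change 0.66 ± 0.17, adjusted p = 1.00). Pdgfra of trophocyte-like cells had a log2 fold change of 0.07 ± 0.18, and Pdgfrb of 0.03 ± 0.14.

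The large bowel (cecum and large intestine, 1 library each) was compared with the 4 small intestinal libraries in telocyte-like and LEC-like cells, the spread being taken from the replicated small intestinal regions. In telocyte-like cells, 19.2% of 10360 genes passed (9.97% higher and 9.24% lower). Pdgfrl was lower in the large bowel (2.06 and 5.34 against 14.4 to 31.1 CPM, log2 fold change -2.46 ± 0.44, edgeR adjusted p = 0.00589), the small intestinal classes resting on 59 Pdgfrl UMIs. It kept this call in 14 of 15 alternatives, with an adjusted p of 0.0927 when only libraries numbered 1 were used. Pdgfra was also lower (1313 and 1462 against 2021 to 2548 CPM, log2 fold change -0.67 ± 0.21, adjusted p = 0.0483), without overlap, but passed in only 5 of 15 alternatives, failing without proximal 1, without proximal 2, without the cecum and without the large intestine (adjusted p between 0.104 and 0.250). The share of all genes without overlap was not counted. Marker sums of the telocyte-like cells moved with region as well. Their 8 telocyte markers summed to 2603 and 3097 CPM in the large bowel and 4686 to 6729 CPM in the small intestine, and 6 pericyte markers to 82.1 and 216 against 438 to 677 CPM. The 5 markers of Ptn/Scg2 stromal cells were lower as well (92.6 and 124 against 163 to 341 CPM). Smooth muscle markers were higher (7 genes, 2692 and 3176 against 1330 to 2660 CPM). Markers of lamina propria fibroblasts (5 genes, 5745 and 9793 against 2402 to 5713 CPM) and of chemokine-high stroma (5 genes, 697 and 831 against 91.4 to 352 CPM) were higher too. None of these markers was at 0 in either region. At resolution 1.0 a telocyte-like cluster led by Sox6 and Sv2b held 19 to 71 cells per small intestinal library and 0 in both large bowel libraries. The other telocyte-like cluster held 30 to 96 cells per small intestinal library, 730 cecal and 3395 large intestinal cells. Lgr5 was raised in the latter only. The part of these markers and clusters in the Pdgfra and Pdgfrl differences was not tested. Under the per-cell marker gate the log2 fold change of Pdgfra was -0.08 (adjusted p = 0.760). Pdgfa, Pdgfd and Pdgfrb did not pass, and the small intestinal telocyte-like cells were few (51 to 167 per library).

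In LEC-like cells the ligand genes differed between the large bowel and the small intestine, and 20.3% of 13913 genes passed (9.37% higher and 10.9% lower). Pdgfa was 42.9 CPM in the cecum and 44.3 CPM in the large intestine, against 13.3, 16.9, 17.4 and 19.3 CPM in the small intestinal libraries. Pdgfb was 28.8 and 14.2 CPM, against 11.01, 5.71, 7.63 and 4.73 CPM. Free RNA held 0.493 and 3.22 CPM of Pdgfb in the same order, against 13.8, 5.97, 6.09 and 5.63 CPM. With 10% of free RNA subtracted, Pdgfb was 15.1 to 31.7 CPM in the large bowel and 4.61 to 10.6 CPM in the small intestine. Pdgfd was 67.0 and 95.03 CPM, against 131 to 167 CPM. The groups did not overlap for any of the 3 genes, and the share of all genes without overlap was not counted. Pdgfa was higher (log2 fold change 1.35 ± 0.17, edgeR adjusted p = 0.00201), Pdgfd lower (-0.98 ± 0.15, adjusted p = 0.00406), and Pdgfb higher (1.56 ± 0.37, adjusted p = 0.0253). The first 2 calls held in 15 of 15 alternatives. That for Pdgfb was lost without the cecum (log2 fold change 0.99, adjusted p = 0.226) and under the per-cell marker gate (1.00, adjusted p = 0.171). These were 232 and 263 LEC-like cells in the cecum and the large intestine, with 158 Pdgfa and 70 Pdgfb UMIs. Pdgfa was higher in the large bowel in both LEC-like clusters: 56.2 and 71.9 against 15.8 to 26.1 CPM in the one led by Apold1 and Depp1, and 16.3 and 26.3 against 6.53 to 11.6 CPM in the one led by Tll1. Pdgfb overlapped between regions in the Tll1 cluster (4.66 and 9.94 against 2.63 to 8.61 CPM). Summed over 6 markers of blood endothelium, which also had more Pdgfa and Pdgfb, LEC-like cells had 286 and 327 CPM in the large bowel and 105 to 172 CPM in the small intestine, and none of the 6 was at 0 in either. Blood endothelial-like cells also had more Pdgfd, which was lower in large bowel LEC-like cells. The 6 pericyte markers, from a class with much Pdgfa, summed to 52.0 and 53.0 CPM in the large bowel and 225 to 286 CPM in the small intestine, with 1 marker at 0 in the latter. Of other lists, the 6 LEC markers (21969 and 22116 against 16658 to 17648 CPM) and 6 universal fibroblast markers (541 and 718 against 433 to 501 CPM) were higher and 5 Ptn/Scg2 stromal markers lower (294 and 474 against 520 to 720 CPM) in the large bowel, without overlap. Telocyte (66.2 and 81.3 against 38.9 to 49.7 CPM) and myeloid markers (13.2 and 20.2 against 9.54 to 12.6 CPM) were also higher. B/plasma cell (5.45 and 19.8 against 51.3 to 126 CPM) and Cajal cell markers (6.23 and 20.6 against 23.1 to 30.4 CPM) were lower. The part of these marker lists in the ligand differences was not tested. Pathway genes gave 4 higher, 12 lower and 29 that did not pass in LEC-like cells, and 6 higher, 6 lower and 32 that did not pass in telocyte-like cells.

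How Pdgfra was spread over single cells was examined after each cell had been thinned to 2500 UMIs, and cells with at least 4 Pdgfra UMIs were called Pdgfra-high and those with 0 or 1 Pdgfra-low. LEC-like cells served as background, with a Pdgfra UMI in 1.99% to 4.28% of cells per library and 0 of 15393 cells Pdgfra-high, which allows a share of up to 0.0240% (exact 95% binomial interval, counting error only). Among telocyte-like cells the high share was 77.8% and 75.0% in the proximal libraries, 57.6% and 78.4% in the distal libraries, 47.7% (cecum) and 39.7% (large intestine) in the large bowel. Ptn/Scg2 stromal-like cells had 81.8%, 77.3%, 72.3% and 77.9% in the small intestine, 35.1% (cecum) and 37.8% (large intestine) in the large bowel. SEMF-like cells had 1.40% to 1.58% of Pdgfra-high cells, and a Pdgfra UMI in 51.8% to 57.0% of thinned and 84.9% to 91.6% of unthinned cells. The classes therefore differed by whole distributions: pooled over the small intestine, 2.45% of telocyte-like cells had no Pdgfra UMI and 8.97% had 12 or more, whereas 45.9% of SEMF-like cells had none and the highest count in them was 7.

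**Figure D4:**
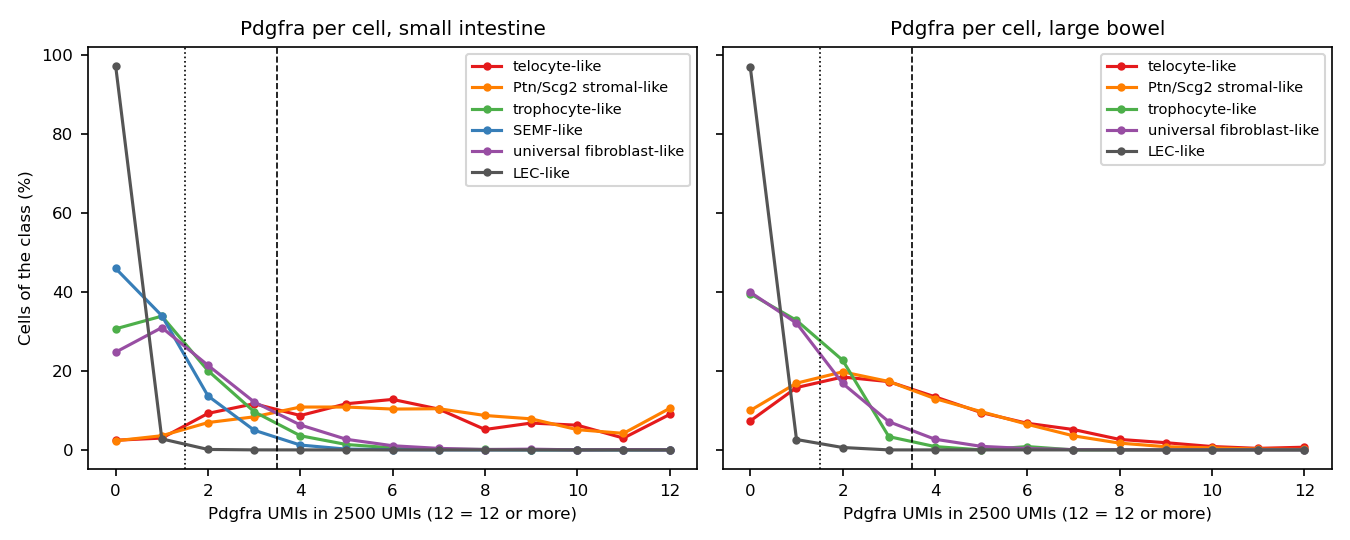
Share of the cells of a class (%) by number of Pdgfra UMIs per cell after thinning to 2500 UMIs, pooled over the small intestine or the large bowel. Cells left of the dotted line are Pdgfra-low and right of the dashed line Pdgfra-high, and the last bin holds 12 or more. Small intestinal telocyte-like and Ptn/Scg2 stromal-like cells spread up to 12 UMIs, whereas 45.9% of SEMF-like cells had 0.

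Over all fibroblast-like cells the Pdgfra-high share was 10.0% and 6.02% in the proximal libraries, 5.42% and 6.26% in the distal libraries, 9.06% (cecum) and 18.0% (large intestine) in the large bowel. In the large intestine 74.6% of these high cells were telocyte-like, and in the cecum 45.5% were Ptn/Scg2 stromal-like and 31.0% telocyte-like. In the small intestine they were spread, with 13.6% to 40.2% Ptn/Scg2 stromal-like, 18.1% to 28.4% trophocyte-like and 18.7% to 37.9% in the Vwc2/Dkk2 cluster. Co-detection of both receptors was also counted in thinned cells. Pdgfrb without Pdgfra was found in 72.0% to 84.6% of pericyte-like cells. Both were found in 25.5% to 43.7% of telocyte-like, 19.9% to 31.1% of SEMF-like and 6.90% to 15.8% of trophocyte-like cells, and in at most 0.380% of LEC-like cells. Universal fibroblast-like (9.86% to 22.3%) and Ptn/Scg2 stromal-like cells (13.3% to 20%) overlapped both the SEMF-like and the trophocyte-like range. Vwc2/Dkk2 cells (15.7% to 19.3%) overlapped the trophocyte-like range and not the SEMF-like one. Telocyte-like cells lay above each of these fibroblast classes except SEMF-like cells, and SEMF-like above trophocyte-like cells. Co-detection therefore separated some of these fibroblast classes and not others.

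Pdgfra-high and Pdgfra-low fibroblast-like cells were compared with each other in 6 libraries with Pdgfra left out of the fit. No other member passed, where 15.4% of 13903 genes did (7.69% higher and 7.74% lower). Pdgfrb was 119 ± 10.8 CPM in high and 144 ± 24.2 CPM in low cells (SD, n = 6, log2 fold change -0.32 ± 0.10, edgeR adjusted p = 0.0570), lower in 5 of 6 libraries. Pdgfd was 152 ± 20.5 against 180.2 ± 36.7 CPM (-0.29 ± 0.10, adjusted p = 0.0859), and Pdgfrl 14.2 ± 5.00 against 9.23 ± 4.34 CPM (0.60 ± 0.20, adjusted p = 0.0778). These 3 passed under some alternatives, Pdgfrb in 3, Pdgfd in 2 and Pdgfrl in 1 of 16. Pdgfa (-0.07 ± 0.12) and Pdgfc (0.33 ± 0.26) did not pass, and Pdgfb was too low to be tested.

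Of 45 pathway genes tested in this comparison, 7 were higher and 6 lower in Pdgfra-high cells (28.9%, median log2 fold change 0.02, all genes -0.01). Plau, which encodes the protease urokinase that can activate PDGF-D, had the largest rise (37.7 ± 41.2 against 6.07 ± 8.50 CPM, log2 fold change 2.71 ± 0.28, adjusted p = 7.52e-04), higher in 6 of 6 libraries but with overlapping ranges. Spry1 (log2 fold change 0.75 ± 0.11, adjusted p = 0.00371) and Cspg4 (0.75 ± 0.20, adjusted p = 0.0372) followed. Lower genes were led by Pcsk5, a proprotein convertase gene (-0.62 ± 0.15, adjusted p = 0.0225), Sparc, whose product binds PDGF-B (-0.59 ± 0.12, adjusted p = 0.0148), and Fyn, a Src-family kinase gene (-0.52 ± 0.13, adjusted p = 0.0266). Of 10 inhibitors 4 were higher and 1 lower, and 0 of 6 response genes passed. Among genes of the subepithelial and crypt fibroblasts, Foxl1 (log2 fold change 1.57 ± 0.24, adjusted p = 0.00375) and Procr (1.38 ± 0.27, adjusted p = 0.0101) were higher, and Tslp (0.28 ± 0.37), Glp2r (0.33 ± 0.15), Grem1 (-0.61 ± 0.39), Cd81 (0.69 ± 0.30) and Cd34 (-0.90 ± 0.30) did not pass. High and low cells differed in class makeup, as given above.

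**Figure D5:**
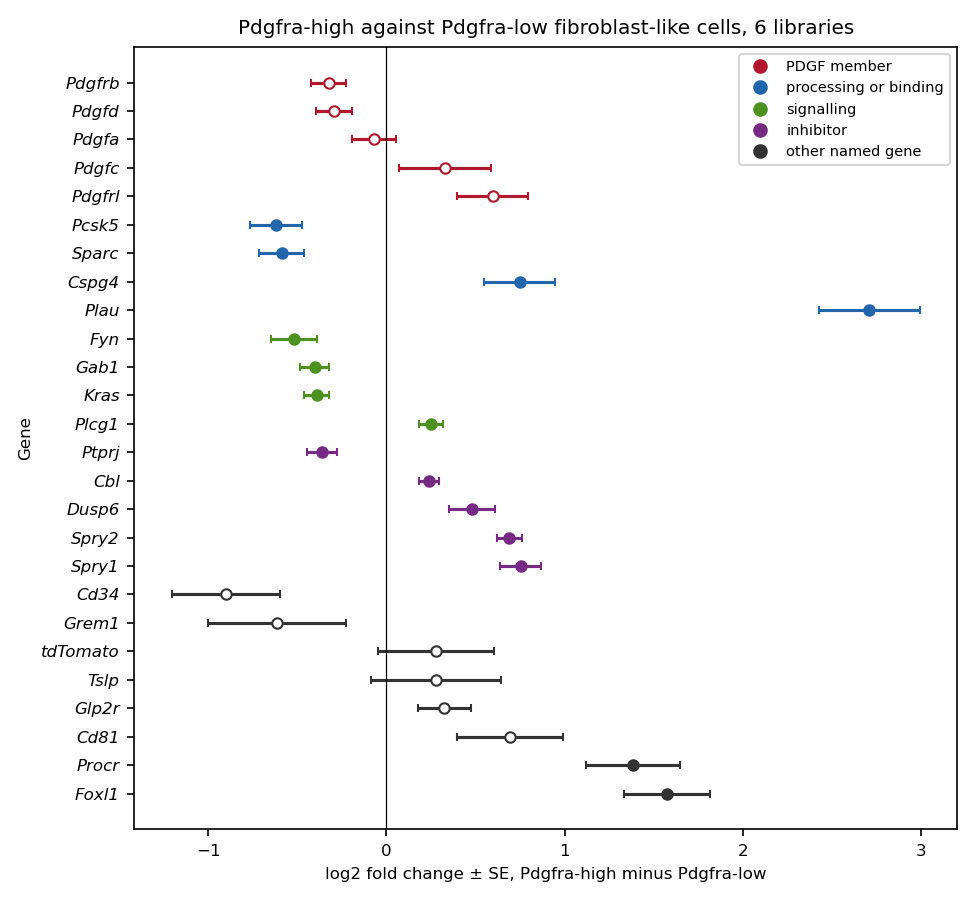
Log2 fold change of Pdgfra-high over Pdgfra-low cells for the PDGF genes, the pathway genes past the threshold, the reporter tdTomato and fibroblast genes, coloured by role, with bars of 1 standard error, filled where the adjusted p was under 0.05. Plau (2.71), Foxl1 (1.57) and Procr (1.38) lay farthest to the right.

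Within SEMF-like cells, where class makeup was held more nearly constant, the same split rested on 3 libraries with at least 20 high cells each (distal replicate 1 had 16). There, 2 of 11026 genes (0.0181%) passed in edgeR and no PDGF or pathway gene did. Pdgfrb was 255 ± 48.6 CPM in high and 289 ± 66.9 CPM in low cells (SD, n = 3, log2 fold change -0.26 ± 0.19, adjusted p = 0.999), and Pdgfd 179 ± 41.8 against 177 ± 36.4 CPM (-0.08 ± 0.22). The high group held 30, 42 and 46 cells, and Pdgfa gave 6 UMIs in it. What size of difference this design could detect was not tested.

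The genes whose levels ran most like each member over the 84 class-by-library sums were Sort1 (Pearson r 0.84), Dbndd2 and Sema6d for Pdgfa, Sipa1l2 (0.84), Fabp5 and Iqgap1 for Pdgfb, and Aoc3 (0.72), Gas1 and Slc24a3 for Pdgfc. For Pdgfd they were Slc35f5 (0.85), Osmr and Bmpr2. For the receptors they were Clmp (0.92), Mrc2 and Col6a3 with Pdgfra, Pla2r1 (0.88), Sox5 and Mark1 with Pdgfrb, and Vegfd (0.73), Eps8 and Steap4 with Pdgfrl. Sums of 1 library share its depth and its free RNA, and those of 1 class share their cell type.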

How the data were processed

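Live tdTomato+ cells were profiled with the 10x Chromium 3′ kit (v3.1). Using Cell Ranger (8.1.0 per the labels, 8.0.1 per the matrix headers), the authors mapped reads to mm39 plus a tdTomato entry, and they deposited raw UMI counts of every barcode. All later steps were carried out anew. A barcode was kept as a cell if it held 2500 to 40000 UMIs on 1000 to 7500 genes with a mitochondrial share under 10%, and doublets predicted by Scrublet (4.91% to 11.4% per library) were removed. Cells were clustered in scanpy 1.11.5 (2000 variable genes, 30 principal components, Leiden resolution 0.5, PDGF genes excluded, no integration). A cluster took the name of its best list if 3 or more of that list's markers were raised 1.5-fold and either 1 of them was among its top 10 genes or the list's mean log2 fold was at least 1. A cluster whose best list was the epithelial one stayed unnamed if 3 or more proliferation markers were raised. The thresholds were chosen with the clusters in view, and the names can differ from the study's. No ambient RNA was subtracted unless stated.

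Sums of UMIs over the cells of a class in a library were the unit of testing. Genes were filtered with filterByExpr and tested in edgeR 4.0.16 (TMM, quasi-likelihood, Benjamini-Hochberg adjustment at 0.05, R 4.3.3), with library as a block between classes and none between regions. The SE is the fold change divided by the square root of F. Fold changes are fitted after TMM scaling and can differ from ratios of CPM. Whether ranges overlapped was looked at for named genes and marker sums only, and the share of all genes without overlap was not counted. The alternatives were limma-voom 3.58.1, DESeq2 1.42.0, no count filter, each library left out, the block removed or added, 10% free RNA subtracted, doublets kept, resolution 1.0, a per-cell marker gate, other Pdgfra limits (3 or 6 UMIs) and, for the large bowel, libraries numbered 1 only or the small intestine as 1 group. Fits were tested on simulated data with 200 genes changed 2-fold, drawn from genes above a minimum count, with the same dispersion for every gene. Named genes were the PDGF family, up to 3 pathway genes per direction with the largest change in SEMF-like against trophocyte-like or Pdgfra-high against Pdgfra-low cells, and 7 fibroblast genes. Members, lists and tests were chosen with earlier results of these data known. Positions are from the GRCm39 annotation. Staining, flow cytometry and qPCR of the study were not analysed here.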

Additional observations from a re-analysis of the deposited data

Results flagged for a closer look

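Pdgfd in pericyte-like against fibroblast-like cells moved in opposite directions in the 2 small intestinal regions. The log2 ratio of CPM + 1 (pericyte-like over fibroblast-like) was -0.56 and -0.27 in the proximal libraries, a mean of -0.41, and 0.10 and 0.12 in the distal libraries, a mean of 0.11. Each sign was shared by both libraries of a region, and the difference between the regions was not tested.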

How the results depend on the processing

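For PDGF genes past the threshold, 23 results gave 302 alternative values, of which 280 kept direction and call, 22 lost the call and 0 changed sign. For the 40 results not past it, 459 of 512 kept direction and call, 19 gained a call and 34 changed sign, none of the last past the threshold. Lost and gained calls were given with their results. The cause of the changes below was not tested.

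The number of genes past the threshold was 0, 27 and 0 for proximal against distal SEMF-like, trophocyte-like and LEC-like cells. It became 37, 164 and 38 with DESeq2 and 234, 399 and 209 without the count filter. With doublets kept it was 1 (SEMF-like) and 4 (trophocyte-like), at resolution 1.0 it was 1 (SEMF-like), with free RNA subtracted 53 (trophocyte-like) and 1 (LEC-like), and under the marker gate 11 (trophocyte-like). Leaving out 1 library gave 0 to 9, 87 to 252 and 0 to 85. Libraries with the same replicate number shared a hashtag set, and their deviations correlated at 0.45, 0.32 and 0.16, but no label says that a number marks shared mice or a shared batch, and there were 2 pairs. With the replicate block, 444, 539 and 283 genes passed, among them the 4 PDGF results named with the comparison.

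For the large bowel, telocyte-like counts of 1990 became 1045 with DESeq2, 330 with libraries numbered 1 only and 3610 under the marker gate, and 1002 to 2726 with 1 library left out. LEC-like counts of 2824 became 1758 with libraries numbered 1 only and 1188 to 5123 with 1 left out. Pdgfra-high against Pdgfra-low counts of 2145 became 368 without the library block, 1095 with high from 3 UMIs, and 1107 to 2031 with 1 library left out. In SEMF-like cells the count of 2 became 0 with limma-voom, DESeq2 or no block, 1 with free RNA subtracted, 4 with doublets kept, 194 under the marker gate, 12 with high from 3 UMIs, and 0 to 5 with 1 library left out. With 1 library left out, telocyte-like against SEMF-like gave 1643 to 2493, SEMF-like against trophocyte-like 8721 to 9347, pericyte-like against fibroblast-like 5803 to 7198, and blood endothelial-like against LEC-like 5516 to 7456.

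Sign changes (log2 fold change) came mostly from leaving out 1 library, and the values are given as the lowest to the highest over the libraries left out. Between classes, Pdgfb in SEMF-like against trophocyte-like cells ran from -0.43 to 0.22, and in telocyte-like against SEMF-like cells Pdgfa from -0.32 to 0.24 and Pdgfd from -0.18 to 0.23. Between proximal and distal, Pdgfra of SEMF-like cells ran from -0.17 to 0.033 and Pdgfc of LEC-like cells from -0.82 to 0.050. In trophocyte-like cells the ranges were -0.20 to 0.41 for Pdgfa, -0.94 to 0.47 for Pdgfb, -0.19 to 0.13 for Pdgfd, -0.032 to 0.083 for Pdgfrb and -0.73 to 0.58 for Pdgfrl. In the large bowel comparison they were -0.13 to 0.90 for Pdgfa and -0.25 to 0.38 for Pdgfd (telocyte-like) and -0.19 to 1.10 for Pdgfrl (LEC-like), and within SEMF-like cells by Pdgfra -0.26 to 0.16 for Pdgfd. Without the filter telocyte-like against SEMF-like Pdgfa became -0.025 and Pdgfd -0.0040, and large bowel telocyte-like Pdgfd 0.097, which was 0.063 with limma-voom and 0.48 with libraries numbered 1. Under the marker gate Pdgfc became -0.47 in proximal against distal SEMF-like cells, Pdgfd 0.071 and Pdgfrb -0.072 in trophocyte-like cells, Pdgfa -0.038 in large bowel telocyte-like cells and Pdgfd 0.075 by Pdgfra within SEMF-like cells. In the last comparison DESeq2 gave 0.0096 for Pdgfd, and high from 3 UMIs gave -0.36 for Pdgfa. With free RNA subtracted, Pdgfa became -0.016 in telocyte-like against SEMF-like cells and Pdgfrl -2.70 in large bowel LEC-like cells, where keeping doublets gave -0.39 for Pdgfra and -0.69 for Pdgfrb.

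Of 105 class levels and shares recomputed under the per-cell marker gate 34 moved by more than 1 SD, and of 126 each with doublets kept, free RNA subtracted or cells thinned 22, 22 and 9 did, as did 9 of 119 at resolution 1.0. Without thinning, 17 of 18 class shares of cells with a Pdgfra UMI moved. For 8.68% of cells the best class score of the gate (a scaled marker sum) led the next best by less than 0.2. The large bowel against small intestine fit in SEMF-like cells was not run, since the clusters so named held no large bowel cell (the per-cell gate placed some there), nor was the limit of 6 UMIs within SEMF-like cells, which left too few. In simulated data edgeR recovered 98.5% of 2-fold changes between SEMF-like and trophocyte-like cells and 58% in large bowel telocyte-like cells. Only genes above a minimum count were changed, with the same dispersion for every gene. These shares therefore do not extend to members with few UMIs.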

Other observations

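The remaining immune clusters and a cluster of mixed markers carried some PDGF transcripts. Myeloid-like cells (56 to 260 per library, with B cell genes such as Bank1 among their leading genes) had 10.7 to 68.9 CPM of Pdgfc, and 11.9 to 68.3 CPM of Pdgfa. An unnamed cluster led by Lypd8 and Reg3b had 6 of 6 epithelial, 5 of 5 fibroblast lineage and 5 of 5 proliferation markers raised. The per-cell marker gate placed 28.9% of it as SEMF-like, 20.3% as epithelial-like, 14.0% as LEC-like and 9.48% as telocyte-like. This mixed cluster had 11.8 to 46.3 CPM of Pdgfa and 168 to 278 CPM of Pdgfra over its 443 cells, with a median of 14482 UMIs per cell.

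Chemokine-high-like fibroblasts were 4403 cells, nearly all small intestinal, of which the per-cell marker gate placed 7.04% in that class and 66.6% with lamina propria fibroblasts. Their 5 chemokine markers summed to 851 to 1206 CPM, while SEMF-like cells reached 1793 CPM. They had 442 to 498 CPM of Pdgfra and 109.9 to 111 CPM of Pdgfrb, and their Pdgfc level (10.0 to 17.4 CPM) overlapped that of the Vwc2/Dkk2 cluster (7.10 to 15.7 CPM). Cells of the Ccl8/Frmpd4 cluster differed between their 2 libraries in Pdgfd, with 74.8 CPM in the cecum and 246 CPM in the large intestine, while Pdgfra was 269 and 298 CPM.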
